A study of Mus musculus with 4 samples.

Results

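The cells described here are mucin-secreting epithelial cells of the mouse common bile duct, picked by transcripts of Muc6, a gel-forming mucin, and Gkn3, a secreted gastrokine. A barcode was taken when it had at least 500 detected genes, at most 25% mitochondrial counts, no Ptprc, at least 1 count (unique molecular identifier, UMI) of Epcam, at least 3 of Muc6 and at least 1 of Gkn3. This left 207 cells, out of 22968 deposited barcodes and 11831 Epcam-positive, Ptprc-negative cells past the same limits. They are called mucous cells below and were set against 9468 other epithelial cells of the same libraries, which had Epcam and Krt19, no Ptprc, and 0 UMIs of both Muc6 and Gkn3. Because Muc6, Gkn3, Epcam, Krt19 and Ptprc chose the cells, their levels are given as a description, with no test.

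The series has 4 libraries of dissected, enzyme-digested common bile duct, captured with the 10x 3′ chemistry. The gain-of-function group is 1 library labelled Prom1_BcatGOF, from ducts in which Ctnnb1, which encodes beta-catenin, carries a gain of function in a mosaic of cells; it is called GOF here. The construct and the cells that carry it are not described. The other group is 3 wild-type libraries (WT 1 to 3), and all 4 libraries are labelled as untreated, with no age or sex given. The labels do not say whether separate animals gave the WT libraries, so the spread behind each p-value may be technical, and the lone GOF library is assumed to vary like them.

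Peribiliary glands are small tubular glands in the wall of the larger bile ducts. Their mucous cells make mucins and trefoil peptides that protect the duct, and the glands are also known as a site of biliary progenitor cells. Muc6 and Tff2 belong to the mucus of the deep glands of stomach and duodenum, where Muc6 mucin carries sugar chains capped by the enzyme A4gnt. The dissociated cells carry no position, so whether a cell lay in a gland was not measured.

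Mucous cells numbered 108 in the GOF library and 14, 31 and 54 in WT 1, WT 2 and WT 3. As a share of Epcam-positive, Ptprc-negative cells this was 1.93% in GOF and 0.435%, 1.85% and 3.99% in WT 1 to 3. The GOF share lay inside the WT range, which spanned more than the exact (Clopper-Pearson) 95% counting intervals of 0.238% to 0.729% in WT 1 and 3.01% to 5.18% in WT 3. Mucous cells were deeper than other epithelial cells in every library, with median totals of 11384, 11006.5, 8215 and 6874.5 UMIs in GOF and WT 1 to 3, against 8186.5, 7622, 3899 and 2672. When every cell was thinned to 2000 UMIs before the same gate, the shares were 0.999% in GOF and 0.228%, 0.858% and 3.37% in WT 1 to 3.

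Counts of these genes also appeared in Ptprc-positive cells, and whether free RNA in the droplets or doublets gave them was not tested. Among Ptprc-positive cells, which should lack Muc6, 3.13% had a Muc6 UMI in GOF, at a median depth of 7448 UMIs, and 1.10%, 2.61% and 4.26% in WT 1 to 3, at 1447, 3688 and 2412. Gkn3 had a UMI in 9.91% of Ptprc-positive cells in GOF and in 0.979%, 1.12% and 2.13% in WT 1 to 3. The Muc6 and Gkn3 conditions were met by 12 of 2816 Ptprc-positive cells in GOF and by 3 of 817, 0 of 268 and 0 of 141 in WT 1 to 3. In WT 1 that is close to the share of mucous cells, 14 of 3218, so the WT 1 cells cannot be told apart from this background by their frequency. Tff2 was spread more widely, with a UMI in 33.1% of Ptprc-positive cells in GOF and 18.4%, 28.4% and 17.7% in WT 1 to 3, and in 71.4% of the other epithelial cells in GOF and 81.7%, 72.0% and 60.4% in WT 1 to 3. Just inside the gate, the 25 GOF cells with 3 to 5 Muc6 UMIs held 2200.1 CPM of Agr2 (CPM is the UMIs of a gene scaled to a common sum per library), while the 62 just outside it, with 1 or 2 Muc6 UMIs and Gkn3, held 468 CPM. Only 2 and 1 such cells existed in WT 1, 10 and 9 in WT 2, and 4 and 13 in WT 3. Just inside the gate Agr2 stood at 85.0, 660 and 9931 CPM in WT 1 to 3, and just outside it at 2049, 562 and 2397 CPM. The edge of the gate was therefore not a sharp step in Agr2 in WT 1 or WT 2. Muc6 was detected at 3 or more UMIs without any Gkn3 in a further 11 GOF cells and 7, 24 and 36 cells of WT 1 to 3, which belong to neither class. Agr2 stood at 2506 CPM in these GOF cells and at 376, 1677 and 6280 CPM in those of WT 1 to 3. Tff2 stood at 17042 CPM and at 856, 377 and 5433 CPM. The shares above leave these cells out.

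Levels are CPM of the UMIs summed over the cells of a class in a library, and sets of 4 values run GOF, WT 1, WT 2, WT 3. Muc6 (ENSMUSG00000048191; chromosome 7, 141633456 to 141655319, GRCm38) stood at 1558, 2379, 1039 and 3499 CPM in mucous cells and 0 in other epithelial cells, by the rule. Gkn3 (ENSMUSG00000030048; chromosome 6, 87383256 to 87388935) stood at 8371, 4730.3, 2679 and 1523 CPM and 0. The order of the libraries differed between the 2 genes, with Muc6 highest in WT 3 and Gkn3 highest in GOF. The other genes that had been named as markers of these cells showed the same side in all libraries. Agr2 (ENSMUSG00000020581; chromosome 12, 35992907 to 36004087), a protein disulfide isomerase needed to fold mucins, was at 4996, 5885, 2125 and 10528 CPM in mucous cells against 206, 352, 202 and 263 in other epithelial cells. Tff2 (ENSMUSG00000024028; chromosome 17, 31141049 to 31144282), the trefoil peptide that is packed with Muc6, was at 18633, 5163, 1665 and 8759 CPM against 879.9, 1035, 1175 and 618. Mucous and other values did not overlap for either gene, but how many of all genes tested did so was not counted. Klk1 (ENSMUSG00000063903; chromosome 7, 44225360 to 44229618), a glandular kallikrein, was at 32.1, 101, 49.7 and 398 CPM against 1.20, 12.3, 14.6 and 63.4, so that mucous cells were higher within each library but the sets overlapped. Epcam-positive, Ptprc-negative cells with a Muc6 or Gkn3 UMI that missed the gate held 4.10, 37.7, 32.8 and 558 CPM of Klk1. In WT 3 this was above the level of mucous cells. Krt19, a keratin of duct epithelium that the comparison cells had to express, was lower in mucous cells, at 508, 400.3, 701 and 418 CPM against 2438, 2117, 1095 and 772.

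**Figure D1:**
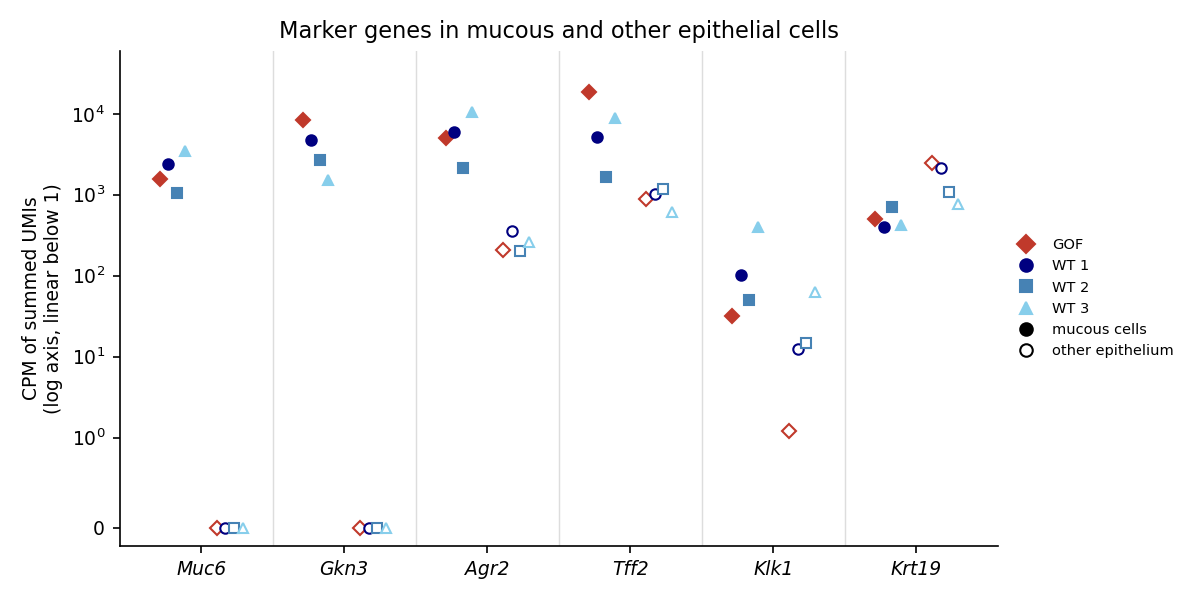
Summed expression (CPM, log axis, linear below 1) of the 5 marker genes and Krt19 in each library; filled symbols are mucous cells, to the left, open symbols other epithelial cells, to the right, and the symbol shape gives the library. Agr2 and Tff2 are separated between the classes, a pattern not counted over all genes. Klk1 overlaps across libraries, and Krt19 is lower in mucous cells of every library.

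Across all genes outside the gate, 599 of 10947 tested genes were higher in mucous cells (5.47%) and 782 were lower (7.14%), with a median log2 difference of -0.05 over all genes tested. The 8 sums were fitted with edgeR (quasi-likelihood) and the library as a block, at a Benjamini-Hochberg adjusted p under 0.05. Against other cells of the depth range of the mucous cells, 510 and 642 genes passed, by DESeq2 481 and 445, in the WT libraries alone 264 and 327, and with no library block 79 and 28, so which direction held more genes depended on the test. Of the genes tested, 10.8% were higher in mucous cells of all 4 libraries and 20.1% lower in all 4, with no test.

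Transcription factors of secretory cells were among the genes with the largest rises in mucous cells. Creb3l4, a membrane-bound factor of secretory cells, stood at 137, 101, 93.1 and 103 CPM in mucous cells against 5.62, 3.55, 4.82 and 11.4 in other epithelial cells. The difference was 4.28 on the log2 scale (SE 0.237, edgeR adjusted p = 3.1e-08). Spdef, an ETS factor required for goblet and mucous differentiation, was at 251, 119.6, 29.0 and 131 CPM against 13.0, 6.09, 4.63 and 15.0 (log2 difference 3.79, SE 0.247, edgeR adjusted p = 1.66e-07). The mucous values of Spdef lay above all values of the other cells, a pattern not counted over all genes, and WT 2 was the lowest. Foxa3, a forkhead factor of gut and liver, was at 137, 156, 47.6 and 103 CPM against 11.8, 6.74, 7.28 and 11.6 (log2 difference 3.54, SE 0.228, edgeR adjusted p = 1.66e-07). Creb3l1, a relative of Creb3l4 that acts in the secretory pathway, and Bhlha15 (Mist1), a factor of cells with a large secretory apparatus, were also higher, by 1.62 and 2.08 (edgeR adjusted p = 9.53e-06 and 0.00583). Bhlha15 rested on 29 mucous UMIs and did not pass in the WT libraries alone (edgeR adjusted p = 0.107).

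Of the 20 tested members of the list of foregut and secretory transcription factors, 4 were higher, Spdef, Foxa3, Bhlha15 and Creb3l1, and 4 were lower, with a median of 0.11. The lower ones were Cdx2, an intestinal factor (1.86, 4.60, 2.07 and 4.92 CPM against 8.62, 9.95, 5.22 and 9.38), Hnf4g, Elf3 and Klf6. The stomach and foregut factors Gata4, Sox2, Barx1, Nkx6-2 and Nkx6-3, the intestinal factors Cdx1 and Isx, and the endocrine factor Neurog3 were at 0 in the mucous cells of all 4 libraries. Gata6, an endoderm factor, was present in both classes, at 141, 161, 178 and 139 CPM in mucous cells and 144, 102, 138 and 119.5 in other epithelial cells, with no call (log2 difference 0.29, edgeR adjusted p = 0.231).

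To set sequence beside these factors, the 250 bases before the start of Muc6, Gkn3, Agr2 and A4gnt were read from RefSeq promoters of GRCm38.p6, for the secreted and mucus-building genes on which the description of these cells rests. The starts are those of RefSeq and differ from the gene ends given above for Muc6 and Agr2, which come from another annotation. The windows are printed 5′ to 3′ on the strand of each gene, in lower case, with motif matches in capitals.
Muc6, chr7:141655394-141655643, minus strand: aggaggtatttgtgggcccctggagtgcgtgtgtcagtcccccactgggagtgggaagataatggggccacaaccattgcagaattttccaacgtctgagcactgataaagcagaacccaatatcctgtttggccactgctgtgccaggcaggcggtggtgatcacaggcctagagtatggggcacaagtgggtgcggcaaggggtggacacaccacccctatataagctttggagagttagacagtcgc
Gkn3, chr6:87388936-87389185, minus strand: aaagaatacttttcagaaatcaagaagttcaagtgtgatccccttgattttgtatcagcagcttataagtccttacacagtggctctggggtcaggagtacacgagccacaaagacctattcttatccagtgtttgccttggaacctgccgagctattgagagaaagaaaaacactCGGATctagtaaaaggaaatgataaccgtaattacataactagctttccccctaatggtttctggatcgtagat
Agr2, chr12:35992675-35992924, plus strand: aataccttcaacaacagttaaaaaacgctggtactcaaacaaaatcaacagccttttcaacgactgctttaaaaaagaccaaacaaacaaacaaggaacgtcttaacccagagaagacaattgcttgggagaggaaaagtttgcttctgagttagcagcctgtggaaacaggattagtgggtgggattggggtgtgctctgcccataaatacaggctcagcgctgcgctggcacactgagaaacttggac
A4gnt, chr9:99612252-99612501, plus strand: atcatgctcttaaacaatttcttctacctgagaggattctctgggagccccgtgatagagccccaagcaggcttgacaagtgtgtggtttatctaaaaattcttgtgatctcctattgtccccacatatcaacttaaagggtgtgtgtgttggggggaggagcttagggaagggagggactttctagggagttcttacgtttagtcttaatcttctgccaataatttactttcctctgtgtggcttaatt
The motifs searched on both strands were CGGAT (a core bound by ETS factors such as Spdef), TNTTTAC (forkhead), GACGTG (bound by factors of the Creb3l family), CTTTGAT (Tcf/Lef) and TATAAA; none of them holds another. Of the 4 windows printed, only that of Gkn3 held a match, CGGAT from 74 to 70 bases before the start. That motif occurred in 13.4% of 32851 promoter windows of this length, TATAAA in 12.4%, TNTTTAC in 10.9%, GACGTG in 5.20% and CTTTGAT in 3.21%. Among other genes of the program, Spdef held TNTTTAC and GACGTG, Foxa3 CGGAT and TATAAA, Pgc TATAAA and Aqp5 GACGTG, while Klk1 and Creb3l4 held none. A match is a description of the letters and not a bound site.

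Genes of the gastric gland mucous program formed the list with the largest median. Of 14 tested members 10 were higher, 3 of them the markers Agr2, Tff2 and Klk1, and 2 were lower, with a median of 2.36. Pgc, the precursor of a gastric protease, was at 768, 271, 521 and 241 CPM in mucous cells against 173, 26.1, 80.4 and 44.5 in other epithelial cells (log2 difference 2.64, SE 0.176, edgeR adjusted p = 1.85e-07). Aqp5, a water channel of gland secretory cells, was at 783, 805, 439 and 416 CPM against 152, 50.4, 123 and 78.9 (log2 difference 2.65, SE 0.252, edgeR adjusted p = 6.01e-06). Both genes were non-overlapping between the classes, but how many of all genes tested were so was not counted. Ctse, another gastric protease, was higher by 1.07 and Cftr, the chloride channel, by 1.26. Lyz2, a lysozyme shared with macrophages, and Smim24 were lower (log2 differences -1.27 and -1.96), and with doublets left out Lyz2 did not pass (edgeR adjusted p = 0.0506). Pla2g1b, a pancreatic phospholipase, differed by 3.25 but not without WT 2 (edgeR adjusted p = 0.176).

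Surface mucous genes, which mark the pit cells of the stomach, split in both directions, with 3 of 8 tested members higher and 4 lower (median -0.56). Vsig1, a gastric junction protein, was at 42.8, 55.2, 16.6 and 29.5 CPM in mucous cells against 1.12, 0.451, 1.77 and 3.80 in other epithelial cells (log2 difference 4.70, edgeR adjusted p = 2.08e-05). Tff1, the trefoil peptide of surface cells, was at 6.05, 0, 2.07 and 218 CPM against 2.37, 9.61, 6.79 and 15.0, and without WT 3 it did not pass (edgeR adjusted p = 0.879). It was seen in 21 of 54 WT 3 cells, 8 of 108 GOF cells and 1 cell of the remaining libraries. The membrane mucins went the other way: Muc3 was at 0, 0, 2.07 and 13.1 CPM against 21.0, 46.5, 94.6 and 41.5, Muc13 at 6.52, 4.60, 8.28 and 16.4 against 52.1, 109, 126 and 64.1 and Muc4 at 17.7, 4.60, 8.28 and 6.56 against 69.9, 86.0, 57.8 and 18.1. Their log2 differences were -3.75, -2.99 and -2.20 (edgeR adjusted p = 0.000122, 3.47e-06 and 4.19e-05). The gel-forming mucins Muc2 and Muc5b were at 0 in the mucous cells of every library, and Muc5ac, that of surface cells, had 1 UMI, in WT 3. The goblet genes Clca1, with 2 mucous UMIs, and Zg16, with 13, were lower, with a log2 difference of -2.71 for Zg16 (edgeR adjusted p = 4.8e-05).

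Enzymes that build mucin sugar chains were higher more often than lower, with 7 of 20 tested members against 3 and a median of 0.39. A4gnt, the enzyme that caps the chains of Muc6, had 81 UMIs in 42 mucous cells and 3 UMIs in the 9468 other cells. Its level was 31.6, 32.2, 4.14 and 6.56 CPM in mucous cells against 0.0535, 0, 0 and 0, a pooled ratio of 828 (counting interval 274 to 4101). Gcnt3, a branching enzyme, was at 127, 759, 184 and 271 CPM against 25.7, 88.7, 36.9 and 84.4 (log2 difference 2.38, SE 0.182, edgeR adjusted p = 8.13e-07). Galnt7 and Galnt12, which start or extend the chains, were higher by 2.12 and 1.90, and the sialyltransferase St3gal6 by 2.13. Fut2, a fucosyltransferase, and Galnt4 passed too, while Fut4, St3gal1 and St3gal4 were lower (log2 differences -2.17, -1.19 and -0.64). Fut4 rested on 5 mucous UMIs and did not pass without WT 1 (edgeR adjusted p = 0.0536).

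Genes of the endoplasmic reticulum and of protein folding were higher in 18 of 29 tested members and lower in 0, with a median of 0.55. Their summed level was 8925, 9875, 6895 and 8188 CPM in mucous cells against 4988, 6074, 5359 and 4817 in other epithelial cells. Sec11c, a signal peptidase subunit, was at 661, 667, 472 and 612 CPM against 153, 189, 203 and 206 (log2 difference 1.71, SE 0.165, edgeR adjusted p = 6.46e-06). The disulfide isomerase Pdia5 was higher by 2.47 and the retrieval receptor Kdelr3 by 1.74. Others that passed were the chaperone partners Dnajc3, Dnajb9, Sdf2l1 and Manf, the isomerases Pdia3 and Pdia6, and the translocon genes Sec61b, Ssr2, Ssr4 and Tram1. Oxidative phosphorylation genes gave 3 higher, Ndufa4, Ndufa1 and Atp5g1, and 0 lower of 22, with a median of 0.21, and none of the 3 passed in the WT libraries alone (edgeR adjusted p = 0.204, 0.257 and 0.229).

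Several of the largest rises lay outside these lists. Cgref1, a secreted calcium-binding protein, was at 43.3, 27.6, 12.4 and 139 CPM in mucous cells against 1.09, 1.38, 1.08 and 2.46 in other epithelial cells (log2 difference 5.08, SE 0.332, edgeR adjusted p = 1.66e-07). C2cd4b was at 33.5, 179, 49.7 and 54.1 CPM against 3.05, 1.16, 2.66 and 1.56 (4.86) and F5, coagulation factor V, at 62.4, 82.8, 26.9 and 36.1 against 2.16, 0.676, 2.56 and 2.90 (4.78). Tesc, a calcium-binding protein, differed by 3.68, Ckb, the brain-type creatine kinase, by 3.28, Casc4, a Golgi membrane protein, by 3.20, Shisa2 by 3.95 and Ptprn2, a protein of secretory vesicles, by 3.98. All were higher in mucous cells of each library, and their adjusted p ran from 3.1e-08 for Casc4 to 6.46e-06 for C2cd4b (edgeR). Gp2, the main protein of zymogen granule membranes, was at 35.4, 78.2, 14.5 and 103 CPM against 0.999, 2.79, 5.22 and 34.6 (3.30, edgeR adjusted p = 0.000607), and the sets overlapped.

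**Figure D2:**
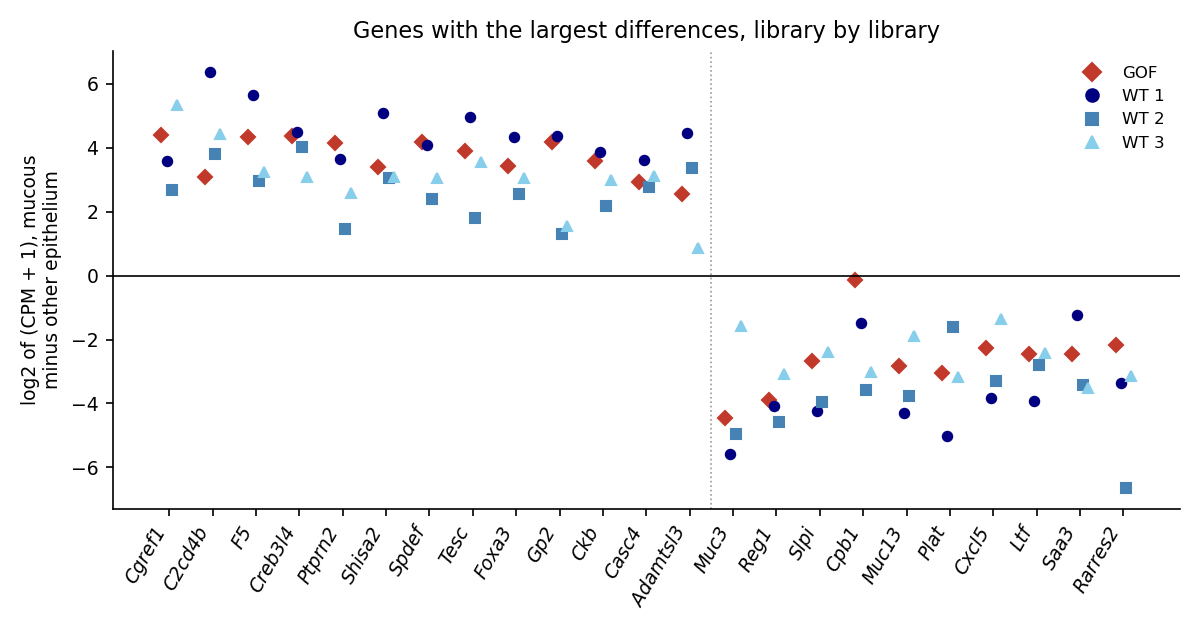
Difference between mucous and other epithelial cells in each library, as log2 of CPM + 1, for the 13 genes with the largest rises that the rule named besides Agr2 and Klk1 and the 10 with the largest falls. Every symbol lies above 0 for the first group and below 0 for the second; Cpb1 is near 0 in GOF, where both classes had little of it.

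Over the 8 sums, the genes whose log level followed Muc6 most closely were Alpl (r = 0.995), Prdx4 (0.990), Mcoln2 (0.988), Tcf19 (0.986) and Galnt12 (0.984). These values are a description over 8 sums that share libraries and fall into the 2 classes, with no test. The rule left no Muc6 in the other epithelial cells, so a high r here largely restates the difference between the classes. Such an r cannot show which genes followed Muc6 among mucous cells. Prdx4, a peroxiredoxin of the endoplasmic reticulum, was at 297, 318, 246 and 318 CPM in mucous cells against 79.2, 85.5, 107 and 89.8. Alpl rested on 15 mucous UMIs.

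Transport genes also differed. Of 18 tested genes for chloride and bicarbonate secretion, 6 were higher and 3 lower (median 0.08). Slc12a2, the basolateral cotransporter that loads chloride, was at 414, 579.8, 190.3 and 428 CPM in mucous cells against 101, 120.3, 123 and 125 in other epithelial cells (log2 difference 1.73, SE 0.210, edgeR adjusted p = 5.4e-05). The subunit regulator Fxyd3 and the water channel Aqp1 were higher by 1.30 and 1.48, and the chloride channel Ano1 and the anion exchanger Slc26a3 were lower (log2 differences -1.21 and -0.70). Bile-modifying genes of the cholangiocyte leaned down, with 4 of 14 higher and 7 lower (median -0.57). Slc10a2, the apical bile acid transporter, was at 5.58, 0, 12.4 and 0 CPM against 45.2, 22.997, 16.5 and 12.1 (-2.54), the exporter Abcc3 at 16.3, 9.20, 10.3 and 27.9 against 78.9, 138, 96.8 and 71.5 (-2.29) and the carbonic anhydrase Car4 at 1.40, 0, 14.5 and 1.64 against 10.6, 52.0, 50.3 and 14.5 (-2.61), with edgeR adjusted p of 0.00124, 2.45e-05 and 0.000243. In the WT libraries alone Slc10a2 and Aqp1 did not pass (edgeR adjusted p = 0.140 and 0.0807). Anpep, an aminopeptidase of the bile front, was higher by 2.41.

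Biliary identity genes differed in both directions. Spp1, osteopontin, was at 9065, 5255, 7166 and 2999 CPM in mucous cells against 3904, 1889, 2411 and 1354 in other epithelial cells (log2 difference 1.37, SE 0.180, edgeR adjusted p = 0.000113). Sox9, a factor of ducts and progenitors, was at 483, 791, 428 and 449 CPM against 215, 182, 226 and 259.6 (1.26, edgeR adjusted p = 0.000264). A further 9 members were lower, among them Krt8 (-1.22), the claudins Cldn3 (-0.63), Cldn4 (-2.09) and Cldn7 (-0.54), and Onecut2 (-0.61). Cldn4 did not pass in the WT libraries alone (edgeR adjusted p = 0.168). Over the list, 2 of 21 tested members were higher and 9 lower, with a median of -0.54. The comparison cells had to carry Krt19; with no such condition, 599 genes were higher and 781 lower, close to the main counts.

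Genes of glandular stem cells were higher in 6 of 15 tested members and lower in 1, with a median of 0.44. Olfm4, a secreted glycoprotein of intestinal stem cells, was at 1958, 6437, 2039.8 and 3519 CPM in mucous cells against 217, 923, 575 and 658 in other epithelial cells (log2 difference 2.58, SE 0.219, edgeR adjusted p = 2.16e-06). Ascl2, a stem cell factor that Wnt signals induce, was at 42.8, 46.0, 16.6 and 19.7 CPM against 16.2, 1.55, 3.94 and 3.57 (2.20, edgeR adjusted p = 0.00197), and Lrig1, a brake on ErbB receptors, was higher by 2.09. Sox4 was the lower member (-1.14). Cell division genes gave 2 of 16, Mki67 and Top2a. Neither passed without WT 2 (edgeR adjusted p = 0.0862 and 0.160) or in the WT libraries alone (0.638 and 0.561). Neither passed against other cells of the depth range of the mucous cells (edgeR adjusted p = 0.0554 and 0.112). The same held at 10 or more Muc6 UMIs, without the top cell of each gene and by DESeq2. Mki67 was detected in 13 of 108 GOF mucous cells and in 7 of 99 WT ones, and 1 cell held 35.3% of its GOF UMIs.

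Lists of inflammatory and defence genes held more lower than higher members in mucous cells. Of 15 tested chemokines and related genes of inflamed epithelium, 0 were higher and 10 lower, with a median of -1.40. Cxcl5, a neutrophil attractant, was at 47.0, 198, 134 and 26.2 CPM in mucous cells against 230.1, 2827, 1339 and 68.1 in other epithelial cells (log2 difference -2.84, SE 0.296, edgeR adjusted p = 1.26e-05). Nos2, the inducible nitric oxide synthase, had 3 mucous UMIs, all in 1 cell of WT 2, a pooled ratio of 0.0280 (counting interval 0.00577 to 0.0818). Secreted defence proteins gave 1 higher and 8 lower of 12 (median -2.33). Their summed level was 9338, 21273, 23684 and 61192 CPM in mucous cells against 14447, 29141, 26526 and 29495, higher in mucous cells of WT 3, where Wfdc18 alone gave 41166 CPM. Slpi, a protease inhibitor, was at 119, 18.4, 41.4 and 32.8 CPM against 765, 363, 652 and 176 (-3.09), the lectin Reg1 at 14.9, 4.60, 2.07 and 22.95 against 236, 93.7, 72.6 and 204 (-3.75) and lactoferrin, Ltf, at 76.3, 50.6, 76.5 and 18.0 against 419, 788, 542 and 101 (-2.81). Their edgeR adjusted p were 1.16e-06, 1.13e-07 and 8.13e-07. Single cells held much of what remained: 1 GOF cell carried 60.4% of the Slpi UMIs and 1 carried 65.0% of those of Saa3, an acute-phase protein.

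Interferon response genes were lower in 6 of 11 tested members and higher in 0 (median -1.07), with the guanylate-binding protein Gbp2 at -2.90 and the factor Irf7 at -2.06. Immediate early genes, switched on by stress and by dissociation of tissue, were lower in 7 of 20 and higher in 0 (median -0.59), among them Klf6 (-1.20) and Atf3 (-1.24). Atf3 did not pass in the WT libraries alone (edgeR adjusted p = 0.126). Plat, tissue plasminogen activator, was at 41.9, 0, 10.3 and 0 CPM in mucous cells against 351, 31.6, 33.6 and 8.04, and Rarres2, chemerin, at 27.0, 4.60, 0 and 3.28 against 125, 56.6, 99.1 and 36.4 (-2.93 and -2.75, edgeR adjusted p = 6.46e-06 and 5.18e-05).

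**Figure D3:**
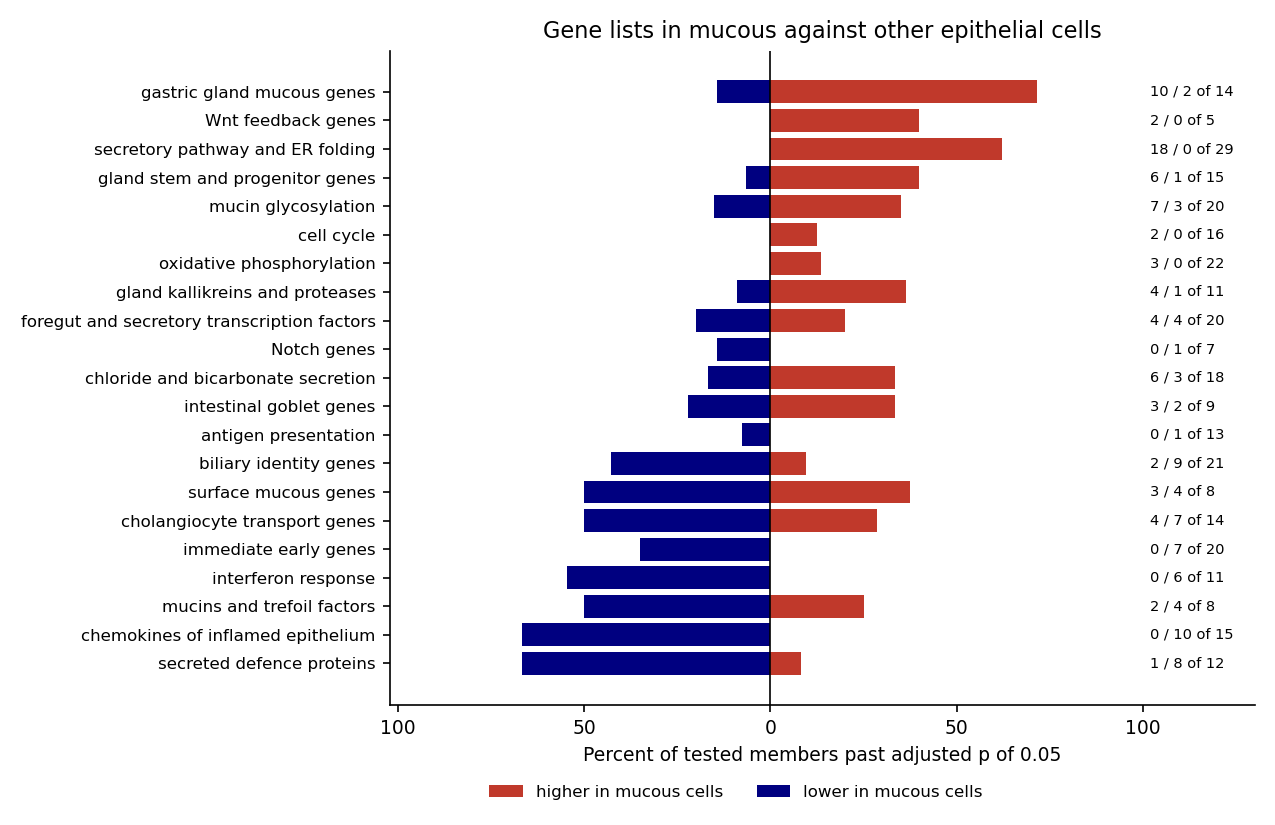
Share of tested members of each functional gene list that were higher (right) or lower (left) in mucous than in other epithelial cells by edgeR's test, ordered by the list's median log2 difference; the numbers give higher and lower of tested. The gastric gland mucous list stands at the top with 10 higher and 2 lower of 14, and secreted defence proteins at the bottom with 1 and 8 of 12.

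Markers of other cell types were compared next. Tuft cell markers gave 0 higher and 5 lower of 9, mesothelial and endothelial markers 0 and 4 of 5, and fibroblast markers 0 and 2 of 7. Pancreatic acinar markers gave 0 higher and 10 lower of 13; their summed level was 192, 405, 329 and 1248 CPM in mucous cells against 193, 481, 830.3 and 3558 in other epithelial cells, highest in WT 3 in both. Klk1, Gp2 and Pla2g1b were also highest in WT 3 among the other epithelial cells, and the part of pancreatic transcripts in their values was not tested. Gastric chief and parietal markers summed to 15.8, 4.60, 124 and 1.64 CPM in mucous cells, with Atp4b, Cckbr, Kcne2 and Chia1 at 0 and Pga5 at 60 UMIs in 1 cell of WT 2. Duodenal Brunner and Paneth markers summed to 706, 248, 240.0 and 1271 CPM in mucous cells against 1953, 732, 553 and 1664, nearly all of it Mmp7, also a duct gene, and the stress gene Nupr1; the Paneth defensins Defa24, Defa30 and Defa17 were at 0, and of liver markers Serpina1a, Fgb, Cyp3a11 and Cps1 were at 0. Ttr, transthyretin, was higher in the mucous sum of each library, at 6265, 5789, 6144 and 3469 CPM against 1901, 847, 1881 and 1597 (log2 difference 1.85, edgeR adjusted p = 7.24e-05). Rgs5, known from pericytes, was at 108, 23.01, 39.3 and 18.0 CPM against 8.64, 0.930, 3.15 and 0.223 (3.91, edgeR adjusted p = 7.83e-07), while the muscle genes Tagln and Acta2 were lower (log2 differences -2.06 and -1.98), Tagln not in the WT libraries alone (edgeR adjusted p = 0.0884).

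Within the class, cells differed widely in secretory load. In GOF mucous cells Muc6 ran from 55.4 CPM through a median of 1519 to 17349.9 CPM, against medians of 1798, 1577 and 3609.7 CPM in WT 1 to 3. The median of Gkn3 was 3459.6 CPM in GOF and 647, 672 and 699 in WT 1 to 3, while the highest cell reached 100652 CPM in GOF. In WT 2 a single cell held 52.4% of the Gkn3 UMIs. Tff2, which the gate did not use, was at 0 in 16 of 108 GOF cells and in 3, 3 and 4 cells of WT 1 to 3, with a highest GOF cell of 208760 CPM. Agr2 was missing from 6 GOF cells, 1 WT 1 cell and none of WT 2 or WT 3.

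Cells with a higher Muc6 CPM tended to have a higher CPM of Agr2 and Tff2. Correlations across cells were taken on log CPM, with a constant added before the log. Between Muc6 and Agr2 the value was 0.304 in GOF and 0.618, 0.870 and 0.473 in WT 1 to 3. Between Muc6 and Tff2 it was 0.508 in GOF and 0.846, 0.421 and 0.525 in WT 1 to 3. Gkn3 and Tff2 were linked in WT 1 to 3 at 0.764, 0.631 and 0.325, and at 0.0453 in GOF. These values are descriptions over 108 GOF cells and 14, 31 and 54 WT cells that share a library and differ in depth. The gate asked for at least 3 Muc6 UMIs, so only deep cells could have a low Muc6 CPM. The part of depth in these correlations was not tested.

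**Figure D4:**
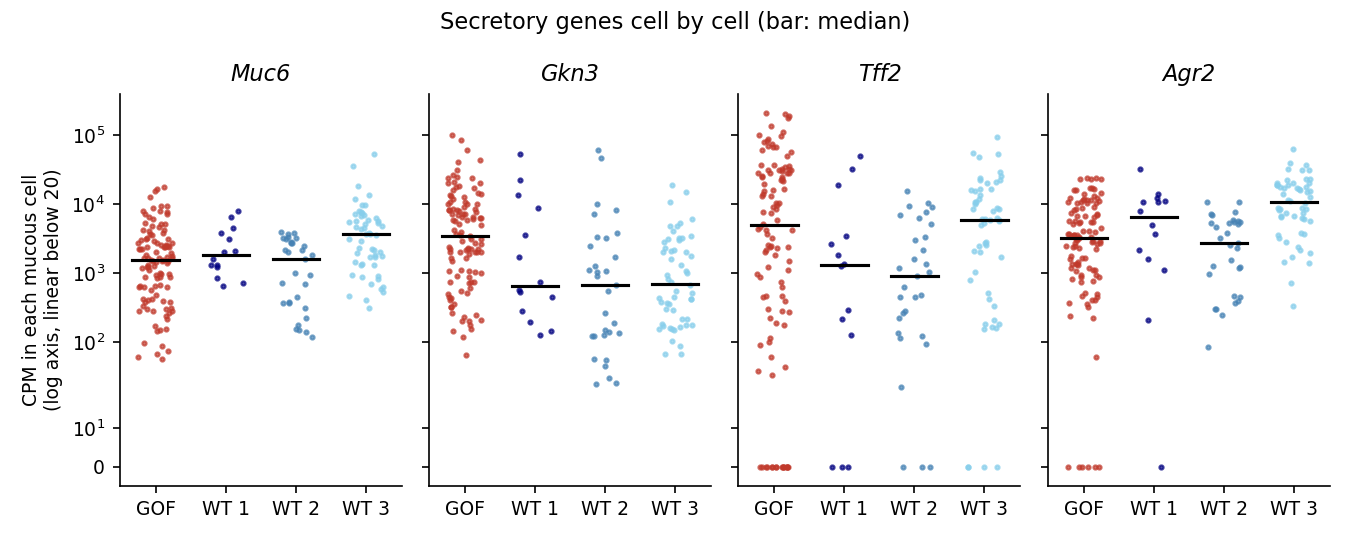
CPM of Muc6, Gkn3, Tff2 and Agr2 in each single mucous cell (log axis, linear below 20), by library, with the median as a bar. Gkn3 has its highest median in GOF, while Muc6 and Agr2 have theirs in WT 3, and a row of cells lies at 0 for Tff2.

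After thinning to 2000 UMIs, Spdef, Agr2, Tff2 and Klk1 could be compared at equal depth. Spdef was detected in 43 of 102 GOF mucous cells (42.2%) and in 2 of 14, 2 of 29 and 14 of 52 in WT 1 to 3, against 2.63% of GOF other cells and 1.53%, 1.00% and 3.84% in WT 1 to 3. Agr2 was detected in 90.2% of GOF mucous cells and 92.9%, 82.8% and 100% of those of WT 1 to 3, against 19.6%, 26.8%, 22.9% and 24.7% of other epithelial cells. In Ptprc-positive cells of the same depth Agr2 was seen in 4.93% in GOF and 9.60%, 11.2% and 13.2% in WT 1 to 3.

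The GOF mucous cells were next compared with those of the WT libraries. Of 8023 genes tested, 669 were higher in GOF (8.34%) and 166 lower (2.07%), or 10.4% in either direction, with a median of -0.01, by edgeR's quasi-likelihood test with 2 residual degrees of freedom. Without WT 1 the lower count was 316. Without TMM scaling the median was 0.23 and the split was 984 and 133. The GOF matrix came from Cell Ranger 7.0.0 and the WT matrices from 3.0.2, so genotype, library and this processing cannot be told apart.

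Wnt feedback genes are induced by beta-catenin and mostly encode brakes on the pathway. Of 12 listed members 8 passed the filter on low counts, and all 8 were higher in GOF mucous cells. Nkd1, Lgr5, Tnfrsf19, Notum and Sp5 passed it only through the GOF library, so the filter partly fixes that count. Nkd1, a Dishevelled antagonist, was at 139.6 CPM in GOF mucous cells against 0, 2.07 and 0 in WT 1 to 3, a pooled ratio of 183 (counting interval 32.6 to 7251) on 1 WT UMI. Lgr5, a receptor for R-spondins on stem cells, was at 104 CPM against 0, 6.21 and 0, a ratio of 45.3 (counting interval 15.3 to 222). Tnfrsf19 was at 144 CPM against 0, 2.07 and 3.28, a ratio of 63.0 (counting interval 21.4 to 307). Each GOF value lay above all 3 WT values, but how many of all genes tested did so was not counted. Notum, a Wnt deacylase, was at 66.1 CPM against 4.60, 8.28 and 0 (log2 difference 3.82). The Frizzled-removing ligases Znrf3 and Rnf43 were at 267 against 27.6, 43.4 and 32.8 CPM (2.67, edgeR adjusted p = 0.000248) and at 169 against 36.8, 35.2 and 52.5 CPM (1.75, edgeR adjusted p = 0.00584). The factor Sp5 was at 54.9 against 4.60, 10.3 and 8.20 CPM (log2 difference 2.47). Axin2, a negative regulator that helps to degrade beta-catenin, was at 69.3 CPM in GOF mucous cells against 36.8, 14.5 and 11.5 in WT 1 to 3 (1.74, edgeR adjusted p = 0.0238). By DESeq2 Axin2, Lgr5, Rnf43 and Sp5 did not pass (adjusted p = 0.468, 0.707, 0.0900 and 0.224).

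**Figure D5:**
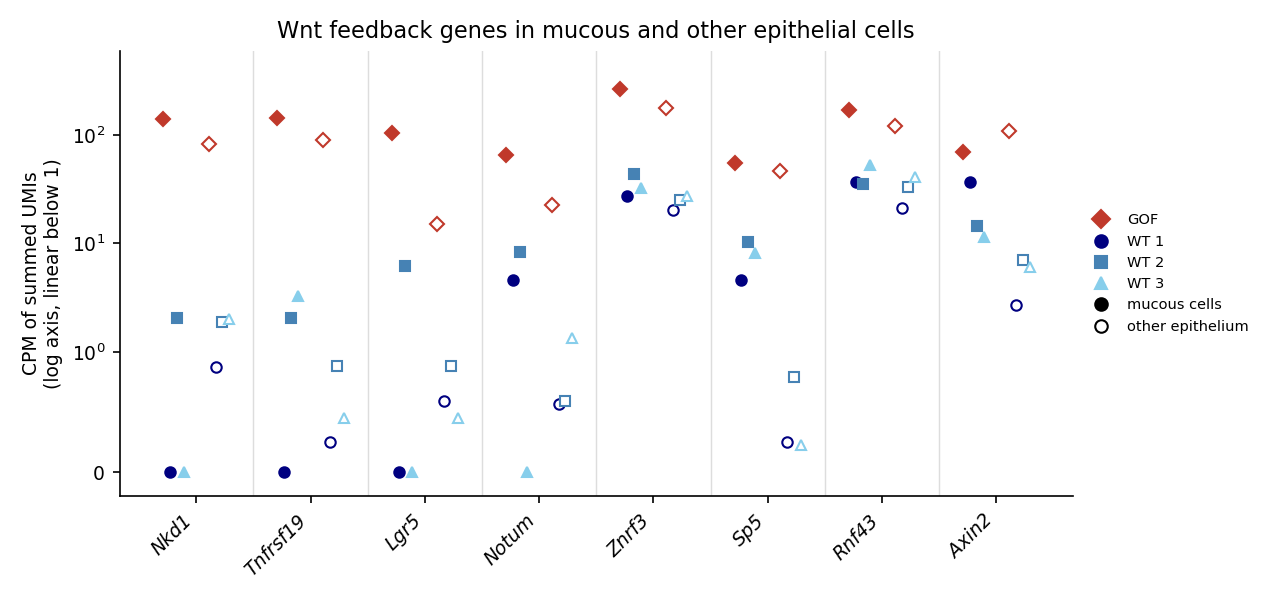
CPM (log axis, linear below 1) of the 8 tested Wnt feedback genes in mucous cells (filled, left) and other epithelial cells (open, right) of each library. GOF symbols lie above all WT symbols of the same class for every gene, a pattern not counted over all genes. WT mucous cells lie above WT other cells for Sp5 and Axin2.

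After thinning to 2000 UMIs, 53 of 102 GOF mucous cells had a UMI of Axin2, Nkd1, Notum, Sp5, Lgr5 or Tnfrsf19 (52.0%, exact 95% interval 41.8% to 62.0%), against 1277 of 3922 GOF other cells (32.6%, 31.1% to 34.1%). In WT 1 to 3 it was 2 of 14, 2 of 29 and 3 of 52 mucous cells against 0.781%, 2.17% and 2.17% of other cells. Ptprc-positive cells gave 7.52% in GOF and 2.17%, 3.55% and 1.10% in WT 1 to 3. In the class comparison over all libraries, 2 of 5 tested feedback genes were higher in mucous cells, Notum (1.72) and Znrf3 (0.58), and Znrf3 did not pass without WT 2 (edgeR adjusted p = 0.107). Within the GOF library Lgr5 stood at 104 CPM in mucous cells and 15.1 in other epithelial cells, and was detected in 15.7% and 2.50% of thinned cells. Notum stood at 66.1 and 22.6 CPM, while Axin2 went the other way, at 69.3 and 109.8 CPM. Detection among thinned GOF cells was 25.5% of mucous and 13.3% of other cells for Tnfrsf19, 20.6% and 12.7% for Nkd1, 11.8% and 4.11% for Notum, 8.82% and 7.57% for Sp5, and 6.86% and 15.0% for Axin2, whose share was the lower in mucous cells. These are values of 1 library, with no test.

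The 53 GOF mucous cells with such a UMI and the 49 without both held the secretory genes. Muc6 was at 1142 CPM in cells with a feedback UMI and 2144 CPM in cells without, Agr2 at 4652 and 5511, and Spdef at 269.6 and 224. Tff2 was at 11326 and 29468 CPM and Gkn3 at 10552 and 5059 CPM. A few cells weigh heavily in these sums, as the 10% of GOF mucous cells with the most UMIs of the gene held 51.9% of the Gkn3 UMIs and 55.4% of the Tff2 UMIs. The median total was 17945 UMIs in cells with one and 10646 UMIs in those without, and these are cells of 1 library with no test.

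The targeted gene was lower in GOF mucous cells. Ctnnb1 (ENSMUSG00000006932; chromosome 9, 120929216 to 120960507) was at 179 CPM in GOF against 446, 499 and 339 CPM in WT 1 to 3, a log2 difference of -1.47 (SE 0.376, edgeR adjusted p = 0.0250), and without WT 2 it did not pass (edgeR adjusted p = 0.0619). Reads lie at the 3′ end of the transcript and would not show a change in its 5′ exons, so the level is no check of the label. Prom1, which the label names, was at 291 CPM in GOF against 354, 246 and 248 (log2 difference -0.15, edgeR adjusted p = 0.839).

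Between genotypes the secretory lists are read against the 10.4% of all genes called in either direction. Of 15 tested gastric gland mucous genes, 1 was higher in GOF, Lyz2 (3.16), and 1 lower, Dmbt1 (-1.99), and of 29 endoplasmic reticulum genes 0 passed in either direction (medians -0.18 and -0.15). Tff2 was at 18633 CPM in GOF mucous cells against 5163, 1665 and 8759 in WT 1 to 3 and did not pass (log2 difference 1.60, SE 0.644, edgeR adjusted p = 0.157). Without WT 1 and without WT 3 it did, at 0.0247 and 2.25e-07. Klk1 leaned the other way, at 32.1 CPM against 101, 49.7 and 398 (log2 difference -2.83, SE 0.907, edgeR adjusted p = 0.0690); without WT 1, 2 or 3 in turn it passed, at 2.82e-10, 0.000594 and 0.0289. Spink4, a secreted peptide of goblet and mucous cells, was at 816 CPM against 8370.1, 18357 and 30706 (log2 difference -4.81). Fcgbp, a mucus protein, was lower too (log2 difference -3.32). The list of intestinal goblet genes, Spink4 among them, was also lower in GOF other epithelial cells. Its summed level there was 2316 CPM against 25848, 20965 and 9813 in WT 1 to 3. The interaction of Spink4 was -1.20, with no call. Lrig1 was higher in GOF by 2.35 (edgeR adjusted p = 0.00123) and Shisa2 lower (log2 difference -1.78, edgeR adjusted p = 0.0251).

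Of 19 tested immediate early genes 12 were higher in GOF mucous cells and 0 lower (median 1.97), with Atf3 at 1121 CPM in GOF against 4.60, 6.21 and 6.56 in WT 1 to 3 (7.26, edgeR adjusted p = 1.44e-06). Their summed level was 12823 CPM in GOF against 2812, 4916 and 3137 in WT 1 to 3 in mucous cells, and 20515 CPM in GOF against 3099.9, 4633 and 6088 in WT 1 to 3 in other epithelial cells. The GOF value was thus the highest in both classes, and larger in other epithelial cells. Secreted defence proteins gave 5 higher, Saa3, Lyz2, Reg3b, Reg3g and Slpi, and 1 lower, Dmbt1, of 12, while their summed level was lower, at 9338 CPM in GOF against 21273, 23684 and 61192 in WT 1 to 3. Fibroblast markers had a summed level in mucous cells of 865 CPM in GOF against 119.6, 155 and 118, and their part in these results was not tested. Acinar markers had a summed level of 192 CPM in GOF against 405, 329 and 1248.

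The largest differences between genotypes included genes that also differed between the GOF and WT values of other epithelial cells. Frmpd4 was at 345 CPM in GOF other cells against 1.92, 4.63 and 0.447 CPM in WT 1 to 3, and at 56.3 CPM in GOF mucous cells against 0 in each WT library. Fdx1l was at least 22.2-fold higher in GOF mucous cells, Frmpd4 at least 24.6-fold and Slit3, a guidance ligand, at least 39.6-fold; 1 cell held 48.2% of the Slit3 UMIs. Chsy3, a chondroitin synthase, rested on 1 WT UMI, a ratio of 356 (counting interval 63.6 to 14069), and so did Rgs7, at 189.7 (counting interval 33.8 to 7516). Among the genes lower in GOF, the phosphatase Ptp4a1 had 0 GOF UMIs and was at least 51.4-fold lower, Gstp1, a glutathione transferase, had a log2 difference of -5.14 (edgeR adjusted p = 0.00293), and Amd2, on 2 GOF UMIs, had a ratio of 0.0156 (counting interval 0.00186 to 0.0584). Interaction tests of these genes gave no call (edgeR adjusted p = 0.162 for Slit3 and 1.00 for the others).

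The interaction asked whether the genotype difference was larger or smaller in mucous than in other epithelial cells, within libraries. Of 13342 genes, 33 were more positive in mucous cells (0.247%) and 8 more negative (0.06%), or 0.307% in all, by edgeR, and by DESeq2 3 and 1. Tff2 had the larger GOF excess in mucous cells (2.24, edgeR adjusted p = 0.0344), which did not pass without WT 1 (0.471) or without WT 2 (1). Axin2 and Sp5 were more negative, at -2.35 and -3.80 (edgeR adjusted p = 0.00394 and 0.00197). In the WT libraries Axin2 was at 36.8, 14.5 and 11.5 CPM in mucous cells against 2.73, 7.09 and 6.03 in other epithelial cells, and Sp5 at 4.60, 10.3 and 8.20 CPM against 0.254, 0.787 and 0.223, so that WT mucous cells lay above WT other cells in each library. These WT mucous levels rest on 22 UMIs of Axin2 and 11 of Sp5. Without WT 1 the Axin2 interaction did not pass (edgeR adjusted p = 0.559), and that of Sp5 did not without WT 2 or WT 3 (0.0690 and 0.118). By DESeq2 the interactions of Tff2, Axin2 and Sp5 did not pass (adjusted p = 1.000, 1.000 and 0.292).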

How the data were processed

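Single cells of dissected mouse common bile duct were captured with the 10x Genomics 3′ kit, v3 chemistry, per the labels' protocols. The authors deposited 1 matrix of raw UMI counts per gene and barcode for each library. Cell Ranger 7.1 and the mm10 build are named in the submitters' processing notes, while the file headers give 7.0.0 for GOF and 3.0.2 for WT; intron counting is not given in the sources used here. Of 32285 GOF genes and 31053 WT genes, the 30406 shared by gene identifier were used.

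Counts were summed per library and class. The sums held 2148744 UMIs for GOF mucous cells, and the libraries 9558637 to 113596685 UMIs in all. Sums were tested with edgeR 4.0.16 (R 4.3.3; quasi-likelihood, TMM scaling, filterByExpr, limma 3.58.1 underneath). Benjamini-Hochberg adjustment ran over all genes tested, with a threshold of 0.05. The contrast of mucous with other cells took the library as a block, since both classes come from the same droplets; GOF and WT mucous cells were compared without one; the interaction kept the library block. DESeq2 1.42.0 was an alternative, as were other gates, filters, scalings and left-out libraries. Doublets were left in, because the gate has no doublet step; leaving out the highest Scrublet scores (scanpy 1.11.5, 0.8% per 1000 barcodes) was an alternative. Scrublet's own threshold marked 273 GOF barcodes and 1, 2 and 9 WT barcodes, and 4 GOF mucous cells and 0 WT ones were among those left out. Libraries shared 5 to 19 barcodes per pair. The scripts were tested on simulated counts, with a fixed assumed spread and known log2 changes of 1 and of 2. The class test recovered 14 of 96 and 74 of 98 such changes. The test of GOF against WT recovered 1 of 74 and 27 of 85, and the interaction 0 of 100 and 2 of 100. A gene with no call can therefore still have changed by this much. Thinning drew 2000 UMIs per cell. Intervals are exact (Clopper-Pearson) at 95% and, like the floor of 3 counts over a group used against 0, cover counting error only.

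The cells, their markers and the gene lists were chosen with earlier results of these data known. Named genes are the gate and marker genes; the 15 largest rises and 10 largest falls between classes and the 8 of each between genotypes past the threshold, in the same direction in every library, at 50 CPM or more in the higher class; the 5 largest interactions of each sign; up to 4 members per list by size of the class difference; and the 5 genes most like Muc6. Other list members, Cdx2, Gata6, Lrig1 and other genes among them, and the gate cells split by feedback UMIs, were named after their values were seen. Some genes that the rule names are not reported here.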

Additional observations from a re-analysis of the deposited data

Results flagged for a closer look

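For 17 of the named genes, among 41 genes in all, the difference between mucous and other epithelial cells was not the same in the GOF library and the WT libraries by the interaction test (edgeR adjusted p under 0.05), with 1 GOF library in each case. Values are the log2 difference between classes in GOF minus that in WT. Among genes of the mucous program, Tff2 gave 2.24, Klk1 2.28, Gp2 2.78, C2cd4b -2.22 and Adamtsl3 -2.95. Klk1 kept its edgeR call without each WT library in turn, and the others did not. By DESeq2 each of these genes, Klk1 included, lost its call. Tff2 lost it without WT 1 or WT 2 (edgeR adjusted p = 0.471 and 1), Gp2 without WT 3 (edgeR adjusted p = 0.705), C2cd4b without WT 1 or WT 3 (1 and 0.0903), and Adamtsl3 without WT 1 or WT 2 (1 and 0.209). The Wnt feedback genes Sp5 and Axin2 gave -3.80 and -2.35.

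Pancreatic and endocrine hormone genes gave large positive values, Ins1 9.12, Iapp 7.33, Pyy 6.33, Ppy 5.81 and Ins2 5.70. In the other epithelial cells Ins2 stood at 2.68 CPM in GOF against 1647, 16.4 and 1.12 in WT 1 to 3, so that WT 1 stood apart, and in mucous cells at 3.26 CPM in GOF against 23.01, 4.14 and 1.64. Ins1, Ins2, Pyy and Ppy did not pass without WT 1, at an edgeR adjusted p of 1 each. Iapp stood at 245 CPM in GOF mucous cells against 13.8, 0 and 0, and 1 GOF cell held 62.8% of its GOF UMIs. Pla2g1b, the pancreatic phospholipase, gave 4.74, and its part of pancreatic transcripts was not tested.

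Genes of other cell types were also among them. The immunoglobulin genes Igkc and Igha gave -4.38 and -3.35; Igkc stood at 15.4 CPM in GOF mucous cells against 9.20, 12.4 and 57.4 in WT, and at 521 CPM in GOF other cells against 22.0, 18.3 and 87.8. Igha did not pass without WT 3 (edgeR adjusted p = 1). The fibroblast genes Dcn and Col1a2 gave 3.07 and 3.45, with Dcn at 159 CPM in GOF mucous cells against 4.60, 22.8 and 11.5 and at 399 CPM in GOF other cells against 77.4, 510.3 and 218. Col1a2 did not pass without WT 2 (edgeR adjusted p = 0.0725).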

How the results depend on the processing

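Mucous cells numbered 14 in WT 1, and 1 GOF library carries the genotype comparison, so genes with few UMIs are limited by depth. Counts of genes higher in mucous cells were 264 in the WT libraries alone and 537 to 653 with 1 WT library left out; lower counts were 327, 601 to 931, 445 by DESeq2 and 1188 with no filter on low counts. With no replicate block 79 genes were higher and 28 lower. GOF and WT could not be paired, because the GOF group has a single library, whose labels give no replicate number. The contrast of mucous with other cells was paired within libraries through the block. Genes higher in GOF mucous cells were 191 by DESeq2 and 678 to 781 with 1 WT library left out; lower ones were 104 and 186 to 316, the last, 316, without WT 1. Interactions numbered 4 by DESeq2, 17 without the top cell of each gene and 28 to 52 with 1 WT library left out. The share of mucous cells in GOF was 1.22% at 10 or more Muc6 UMIs, 3.04% at 1 or more and 0.999% after thinning; that of WT 1 was 0.228% after thinning, and that of WT 2 was 0.894% at 10 or more UMIs and 0.858% after thinning. The interactions of Pyy and Iapp turned to -7.75 and -6.85 at 10 or more Muc6 UMIs, and that of Igha ran from -3.46 to 4.48 with 1 WT library left out, turning without WT 3. The class difference of Mcpt1 ran from -0.40, without WT 3, to 2.03, and that of Hist1h2ap turned to -0.60 without the top cell of each gene. The cause was not tested. The alternatives without the top cell of each gene, with no TMM scaling and with no Krt19 condition were chosen after seeing the data.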

Other observations

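Further gene groups were compared between mucous and other epithelial cells. Intestinal goblet genes gave 3 higher and 2 lower of 9 tested (median -0.02), with Spdef, Klk1 and Galnt12 the higher ones. Gland kallikreins and proteases gave 4 higher, Klk1, Pgc, Ctse and the membrane protease Prss8, and 1 lower of 11 (median 0.18). Mucins and trefoil factors gave 2 higher, Tff2 and Tff1, and 4 lower of 8 (median -1.21). Among secreted defence proteins Wfdc2 was the higher one, at 1796, 3525, 1998 and 2043 CPM in mucous cells against 1582, 2005, 1515 and 890.0 in other epithelial cells. Notch genes gave 0 higher and 1 lower of 7, the ligand Dll1 (-1.62), which did not pass without WT 1 (edgeR adjusted p = 0.0564). Antigen presentation genes gave 0 higher and 1 lower of 13, the proteasome subunit Psmb8 (-0.94). Immune markers gave 0 higher and 1 lower of 7, enterocyte markers 0 and 0 of 2, and no enteroendocrine marker was tested, since none passed the filter on low counts.

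Between genotypes, 8.34% of all genes tested were higher and 2.07% lower in GOF mucous cells, and the lists below are to be read against these shares. In GOF mucous cells, antigen presentation genes were higher in 3 of 14 tested members and lower in 0 than in WT ones, interferon response genes in 2 of 6 and 0, and gland stem and progenitor genes in 8 of 18 and 0 (median 0.56), 5 of those 8 being Wnt feedback genes as well. Mucin glycosylation genes gave 2 higher and 0 lower of 17, and biliary identity genes 1 and 0 of 21.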
